A study of Mus musculus with 12 samples.

Results

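Atp5k encodes subunit e of the mitochondrial ATP synthase, and its messenger RNA was followed here together with that of 9 other nuclear-encoded subunits of the same enzyme: Atp5l, Atp5j2, Atp5h, Atp5j, Atp5e, Atp5d, Atp5g1, Atp5g2 and Atp5g3. The 10 genes were taken by symbol from a count table of 54427 genes, and all 10 passed the filter on low counts, as did 17227 genes in all. They were chosen because Atp5k was low in Ulk1OV libraries beside WT libraries, so its values in that comparison are a description and carry no test. The RNA came from mouse hippocampus, 3 libraries in each of 4 groups: WT; 5xFAD; Ulk1OV, labelled as overexpression of ULK1, the kinase that starts autophagy; and 5xFAD;Ulk1OV, which carries both labels. 5xFAD mice are a transgenic model of amyloid plaque formation, with mutant human APP made in neurons. The sources used here give no age, sex, strain, Ulk1OV construct or promoter that drives it. Whether the 3 libraries of a group came from separate mice is not stated, so p-values here reflect a spread between libraries that may be technical.

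The ATP synthase is a rotary machine in the inner mitochondrial membrane. Protons that flow back through its membrane part turn a ring of c subunits, a central stalk carries the rotation into the catalytic head, and a peripheral stalk holds the head still while ADP and phosphate are joined. Subunits e and g sit where neighbouring enzymes meet, and the rows of enzyme dimers that they help to form bend the membrane into cristae. Neurons draw most of their ATP from this enzyme.

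The question put to the data was whether Atp5k differed between the groups alone. It did not, but its differences were the largest of the 10. In Ulk1OV against WT that follows in part from how Atp5k was chosen, and other comparisons share libraries with it. 5xFAD;Ulk1OV against 5xFAD shares none, and there Atp5k had a log2 fold change of 1.60, beside 0.72 for Atp5e, the next largest. edgeR called neither there (adjusted p = 0.0597 and 0.0547). Atp5k was high in WT and 5xFAD;Ulk1OV and low in 5xFAD and Ulk1OV, and the c-subunit gene Atp5g3 and the central stalk genes Atp5e and Atp5d were low in the same groups by smaller amounts. The other 6 genes lacked this pattern, and Atp5h was highest in Ulk1OV.

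Promoter sequences are shown for the 3 genes with the largest differences between groups (Atp5k, Atp5g3, Atp5e) and for Atp5g2, a c-subunit gene whose levels overlapped between groups. Each runs 5′ to 3′ over 300 bases, from 250 before to 50 after the annotated start, from RefSeq on GRCm38.p6. All are on the minus strand: chr5:108434350-108434649 for Atp5k, chr2:73911277-73911576 for Atp5g3, chr2:174464052-174464351 for Atp5e and chr15:102670998-102671297 for Atp5g2. Capitals mark letters that match a searched motif on either strand.
Atp5k: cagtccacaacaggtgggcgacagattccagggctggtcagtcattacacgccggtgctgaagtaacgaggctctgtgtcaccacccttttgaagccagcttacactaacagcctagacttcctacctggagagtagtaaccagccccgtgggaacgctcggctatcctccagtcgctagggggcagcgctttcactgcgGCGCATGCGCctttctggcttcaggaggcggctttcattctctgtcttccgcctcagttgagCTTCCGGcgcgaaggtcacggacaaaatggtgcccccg
Atp5g3: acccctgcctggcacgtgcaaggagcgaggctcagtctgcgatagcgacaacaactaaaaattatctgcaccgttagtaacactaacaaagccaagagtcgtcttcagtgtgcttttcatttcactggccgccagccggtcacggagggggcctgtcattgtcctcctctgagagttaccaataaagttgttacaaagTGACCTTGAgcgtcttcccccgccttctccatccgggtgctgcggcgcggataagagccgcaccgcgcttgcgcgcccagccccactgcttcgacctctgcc
Atp5e: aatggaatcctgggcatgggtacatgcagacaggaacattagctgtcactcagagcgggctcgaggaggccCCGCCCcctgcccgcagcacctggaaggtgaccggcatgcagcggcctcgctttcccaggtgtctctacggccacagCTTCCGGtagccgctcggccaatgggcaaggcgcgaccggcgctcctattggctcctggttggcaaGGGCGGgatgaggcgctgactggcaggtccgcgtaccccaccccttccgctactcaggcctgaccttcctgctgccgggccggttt
Atp5g2: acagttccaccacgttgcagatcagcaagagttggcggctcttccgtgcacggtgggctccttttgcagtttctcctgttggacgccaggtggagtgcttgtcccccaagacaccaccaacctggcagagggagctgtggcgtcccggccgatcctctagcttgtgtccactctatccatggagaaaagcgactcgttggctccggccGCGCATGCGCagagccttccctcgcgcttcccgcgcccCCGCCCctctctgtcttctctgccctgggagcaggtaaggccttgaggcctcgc
The first capitals in Atp5k are the palindromic core bound by NRF1, a factor known for nuclear genes of respiration, and the second are CTTCCGG, the reverse strand of the ETS core CCGGAAG. Atp5g3 holds the ERR core TCAAGGTCA, the element of estrogen-related receptors, written here as its reverse strand TGACCTTGA. Atp5e holds the ETS core once and the SP1 core GGGCGG in 2 places. Atp5g2 holds the same NRF1 core as Atp5k, and 1 SP1 core. Over 32851 mouse promoters of this length the NRF1 core was found in 0.971%, the ETS core in 8.86%, the SP1 core in 35.7% and the ERR core in 0.423%. Among the 10 subunit genes, all with a RefSeq promoter and with 12 windows between them, the NRF1 core stood in 2, the ETS core in 5, the SP1 core in 3 and the ERR core in 1. The YY1 core AAGATGGCG was in 2 (1.4% of all promoters) and TATAAA in 1 (13.6%). The motifs did not overlap one another in the 4 sequences shown. No motif searched was shared by all 3 of Atp5k, Atp5g3 and Atp5e, and among the 4 shown the NRF1 core was in 1 gene that followed the pattern and 1 that did not.

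Totals ran from 16149992 to 18547132 counts per library, and pairs of replicates differed beyond sampling noise (chi-square per degree of freedom 6.78 to 27.5 over the 12 pairs). Levels are given as CPM, which scale each count to the library total over tested genes times the TMM scaling factor of edgeR. Ulk1 stood at 84.6 to 102 CPM in the 6 libraries with the Ulk1OV label and at 63.5 to 86.3 in the other 6. These ranges overlapped, and edgeR did not call Ulk1 in Ulk1OV against WT (log2 0.23 ± 0.11, edgeR adjusted p = 0.229) or in 5xFAD;Ulk1OV against 5xFAD (0.35 ± 0.11, edgeR adjusted p = 0.144). App, which takes up reads of the 5xFAD transgene, stood at 2201 to 2667 CPM in 5 of the 6 libraries with the 5xFAD label and at 1240 to 1493 in the 6 without it. In the library labelled 5xFAD;Ulk1OV replicate 3 App was at 1310 CPM, within the range of libraries without the label. Prnp and Lamr1-ps1, the other label checks, split alike. Prnp was at 954 CPM there, beside 2067 to 2510 in the other libraries with the 5xFAD label and 900 to 1119 in those without it. Lamr1-ps1 had 0 counts there and in every library without the label, and 184 to 304 in the others. Calls among the 10 genes are also given without that library. Other values and tests keep it unless stated. Without it, Ulk1 had log2 0.43 ± 0.12 in 5xFAD;Ulk1OV against 5xFAD (edgeR adjusted p = 0.116). Markers of all 10 cell types looked for were above 0 in every library. The summed markers of neurons ran from 4088 to 5437 CPM with overlapping groups.

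Atp5k is the gene of subunit e, a small membrane protein at the dimer interface (GRCm38 chromosome 5, 108433244 to 108434448, minus strand, coding transcript of 371 nucleotides). Its level was 63.0, 64.8 and 68.8 CPM in the WT libraries. The 5xFAD;Ulk1OV libraries, at 68.0, 65.5 and 69.7 CPM, were much alike. The 5xFAD libraries stood at 38.3, 14.6 and 14.1 CPM and the Ulk1OV libraries at 10.4, 15.7 and 7.90 CPM. The WT and 5xFAD;Ulk1OV libraries fell in 1 narrow band and overlapped, every library of the other 2 groups lay below that band, and 5xFAD replicate 1 lay between the rest of its group and the band. As raw reads, the lowest library held 145 counts and the highest 1252, so counting error is small beside these gaps. The group means were 65.5 ± 3.0 CPM (WT), 67.7 ± 2.09 (5xFAD;Ulk1OV), 22.3 ± 13.9 (5xFAD) and 11.3 ± 3.98 (Ulk1OV), as SD over 3 libraries each. In whole tissue, fewer cells of a type and less RNA per cell cannot be told apart.

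**Figure D1:**
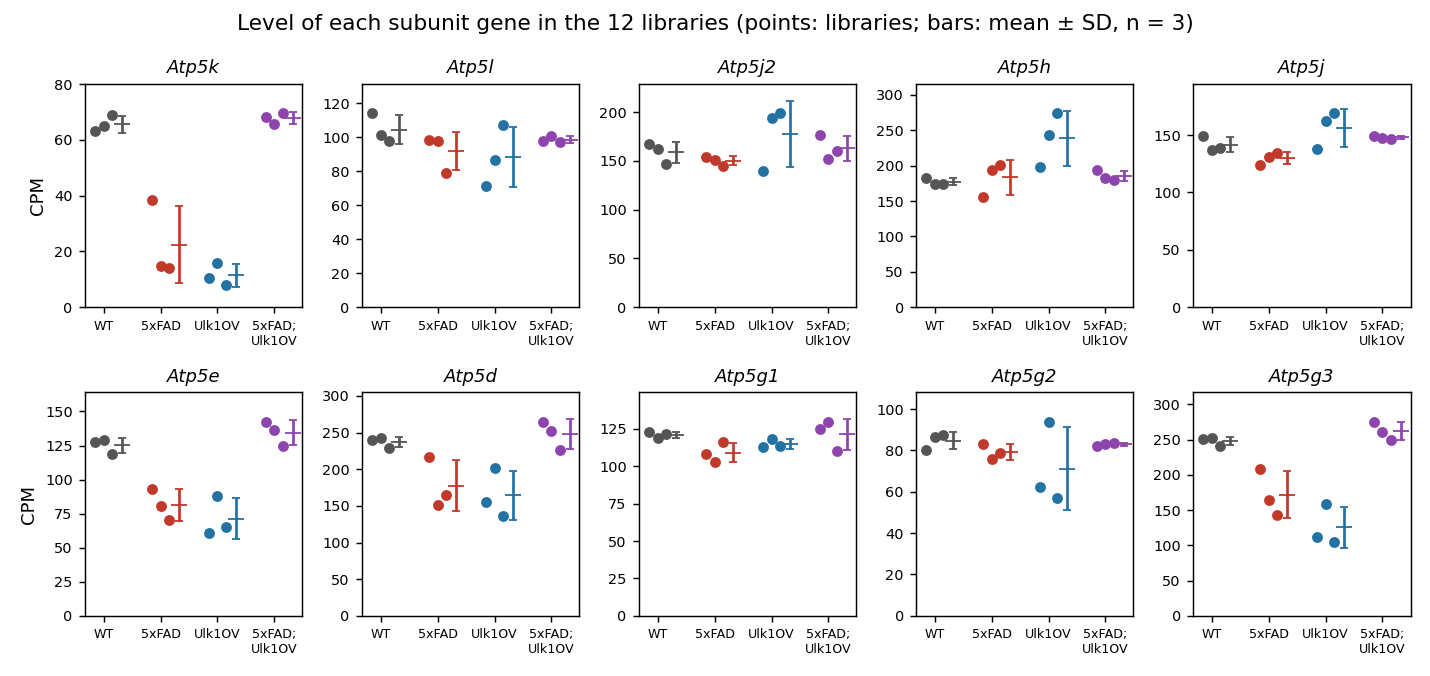
Level in CPM (vertical axis, from 0) of each of the 10 subunit genes, with 1 point per library, grouped by genotype, and a bar for the mean ± SD of 3 libraries. Atp5k lies at 63.0 to 69.7 CPM in WT and 5xFAD;Ulk1OV and at 7.90 to 38.3 in 5xFAD and Ulk1OV; Atp5e, Atp5d and Atp5g3 show smaller gaps in the same direction.

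Atp5k and Atp5l, the gene of subunit g, encode partners at the dimer interface, and Atp5j2 encodes subunit f, which lies beside them in the membrane. Atp5l (chromosome 9, 44912557 to 44920742, minus strand) was at 114, 101 and 97.7 CPM in WT, 97.7, 101 and 97.0 in 5xFAD;Ulk1OV, 98.4, 98.0 and 78.7 in 5xFAD and 71.4, 86.7 and 107 in Ulk1OV. Its groups overlapped in each comparison. Atp5j2 (chromosome 5, 145183698 to 145192062, minus strand) ranged from 139 CPM in a Ulk1OV library to 199 in another, and its groups overlapped as well. So the 3 neighbours in the membrane part differed by unlike amounts. In 5xFAD;Ulk1OV against 5xFAD, outside the contrast that chose Atp5k, Atp5k had a log2 fold change of 1.60 ± 0.31. Atp5l had 0.10 ± 0.13 and Atp5j2 0.12 ± 0.12 there, and edgeR called none of the 3. In the contrast that chose Atp5k, given as a description, its Ulk1OV mean was 5.80-fold below WT in the fit. Atp5l was 1.18-fold below and Atp5j2 1.12-fold above. Per kilobase of coding transcript the WT level of Atp5k (177 ± 8.08 CPM per kb) was close to that of Atp5l (192 ± 16.1) and Atp5j2 (166 ± 11.2). In Ulk1OV Atp5k was at 30.5 CPM per kb, beside 162 for Atp5l and 186 for Atp5j2.

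The c ring, the rotor that protons turn, is built from 1 mature protein that 3 genes encode with different import signals. Atp5g3 (chromosome 2, 73908447 to 73911326, minus strand) was at 251, 253 and 242 CPM in WT, 276, 261 and 250 in 5xFAD;Ulk1OV, 208, 164 and 142 in 5xFAD and 113, 159 and 105 in Ulk1OV. As for Atp5k, no library of 5xFAD or Ulk1OV reached the lowest WT library. Atp5g1 (chromosome 11, 96068852 to 96075670, minus strand) stayed between 103 and 130 CPM over all 12 libraries. Its 5xFAD libraries (103 to 116 CPM) and Ulk1OV libraries (113 to 118) all lay slightly below the WT libraries (119 to 123). The 5xFAD;Ulk1OV libraries (110 to 130) overlapped each of these groups. Atp5g2 (chromosome 15, 102662864 to 102672352, minus strand) was at 80.2, 86.6 and 87.6 CPM in WT and at 62.3, 94.0 and 56.9 in Ulk1OV, which spanned the WT range. The summed level of the 3 genes was 454.1 ± 3.85 CPM in WT, 466.6 ± 20.9 in 5xFAD;Ulk1OV, 359.9 ± 34.4 in 5xFAD and 311.4 ± 52.5 in Ulk1OV (SD, n = 3 each). Atp5g3 made up 54.7% ± 0.90 of that sum in WT, 56.2% ± 1.04 in 5xFAD;Ulk1OV, 47.4% ± 4.95 in 5xFAD and 40.01% ± 2.53 in Ulk1OV. The share of Atp5g1 went the other way, from 26.6% ± 0.63 in WT to 37.4% ± 4.95 in Ulk1OV, while its own level averaged 121 and 115 CPM in these groups. The c-subunit genes thus differed among themselves as Atp5k differed from Atp5l.

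Atp5e and Atp5d encode the epsilon and delta subunits, which join the central stalk to the c ring. Atp5e (chromosome 2, 174461072 to 174464105, minus strand) was at 128, 129 and 119 CPM in WT, 143, 136 and 124 in 5xFAD;Ulk1OV, 93.4, 80.7 and 70.1 in 5xFAD and 60.8, 88.3 and 65.0 in Ulk1OV. Atp5d (chromosome 10, 80138632 to 80145818, plus strand) was at 239, 243 and 229 CPM in WT, 265, 253 and 226 in 5xFAD;Ulk1OV, 217, 151 and 164 in 5xFAD and 155, 202 and 136 in Ulk1OV. For both genes every 5xFAD and Ulk1OV library lay below every library of WT and of 5xFAD;Ulk1OV, as for Atp5k and Atp5g3. The 5xFAD library nearest to that upper band was replicate 1 for all 4 genes.

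Atp5h and Atp5j encode subunits d and F6 of the peripheral stalk. Atp5h (chromosome 11, 115415689 to 115419962, minus strand) was at 183, 174 and 174 CPM in WT, 194, 183 and 180 in 5xFAD;Ulk1OV, 155, 194 and 201 in 5xFAD and 198, 244 and 275 in Ulk1OV. It was the 1 gene of the 10 whose Ulk1OV libraries all lay above WT. Atp5j (chromosome 16, 84827866 to 84835625, minus strand) was at 142 ± 6.36 CPM in WT, 148 ± 1.66 in 5xFAD;Ulk1OV, 130 ± 5.27 in 5xFAD and 156 ± 16.7 in Ulk1OV. Its 5xFAD libraries, at 124 to 134 CPM, lay below the WT libraries at 137 to 149, and its Ulk1OV libraries overlapped WT.

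Within each library, log2 CPM of Atp5k was set against the mean log2 CPM of the other 9 genes. The difference was -1.16 ± 0.10 in WT and -1.15 ± 0.09 in 5xFAD;Ulk1OV, and -2.63 ± 0.75 in 5xFAD and -3.49 ± 0.40 in Ulk1OV (SD, n = 3 each). Every 5xFAD and Ulk1OV library (-3.94 to -1.77) lay below every library of the other groups (-1.25 to -1.04). The summed level of the other 9 genes differed far less: 1398 ± 39.7 CPM in WT, 1444 ± 65.8 in 5xFAD;Ulk1OV, 1174 ± 59.5 in 5xFAD and 1208 ± 150 in Ulk1OV.

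**Figure D2:**
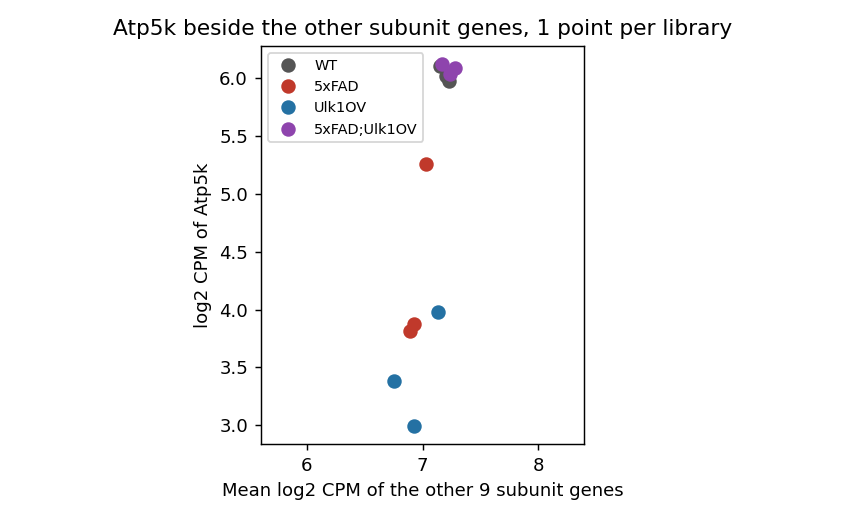
Log2 CPM of Atp5k (vertical axis) against the mean log2 CPM of the other 9 subunit genes (horizontal axis, same scale per unit), 1 point per library. The WT and 5xFAD;Ulk1OV libraries form 1 tight cluster, and the 5xFAD and Ulk1OV libraries lie lower in Atp5k with a much smaller shift along the horizontal axis.

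In Ulk1OV against WT the log2 fold change was -2.54 ± 0.33 (SE) for Atp5k, -0.98 ± 0.15 for Atp5g3, -0.81 ± 0.13 for Atp5e and -0.53 ± 0.15 for Atp5d. It was 0.43 ± 0.12 for Atp5h and between -0.25 and 0.16 for the other 5. Of these, Atp5g2 reached 0.10 and Atp5l -0.39 once each library was corrected for its trends over GC content and transcript length. This contrast chose Atp5k, so these values describe it and no count of calls is read from them; edgeR's quasi-likelihood test called 5.17% of all tested genes here at an adjusted p under 0.05 (Benjamini-Hochberg), 3 of the 10 among them.

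5xFAD;Ulk1OV against 5xFAD asks what the Ulk1OV label goes with on the 5xFAD background. Its 6 libraries lie outside the contrast that chose Atp5k, but earlier results of these data were known when the genes were chosen. All 10 log2 fold changes were above 0, with a median of 0.17 beside -0.00099 over all tested genes, but none of the 10 was called by edgeR. With the same correction Atp5h (-0.10) and Atp5g2 (-0.35) lay below 0. Atp5k was 3.04-fold higher in 5xFAD;Ulk1OV (log2 1.60 ± 0.31, edgeR adjusted p = 0.0597, higher in 3 of 3 libraries). Atp5e was 1.65-fold higher (log2 0.72 ± 0.13, edgeR adjusted p = 0.0547), Atp5g3 1.53-fold (log2 0.61 ± 0.15, edgeR adjusted p = 0.0937) and Atp5d 1.40-fold (log2 0.48 ± 0.15, edgeR adjusted p = 0.130). The other 6 lay between 0.02 and 0.19. An exact permutation test of Atp5k gave a two-sided p of 0.1, the smallest that 3 against 3 can give. The 2 groups did not overlap in 5 of the 10 genes (Atp5k, Atp5e, Atp5g3, Atp5d and Atp5j), all higher, and 10.7% of all tested genes were apart in that direction. edgeR called 0.0464% of all tested genes in this comparison. At an unadjusted p under 0.05, 5 of the 10 passed, beside 3003 of all 17227 genes, and DESeq2 called 4 of the 10, beside 734 of all genes. The call turned on 5xFAD replicate 1: without that library edgeR called 4 of the 10, and the log2 fold change of Atp5k was 2.25 ± 0.20 (adjusted p = 0.000482). Without Ulk1OV replicate 2, a library outside the contrast that enters only the shared spread, it called 3, Atp5k among them (adjusted p = 0.0281), and without Ulk1OV replicate 1 it called 1, Atp5e. Over the alternatives run, the adjusted p of Atp5k reached from 8.53e-35 with no filter on low counts to 0.221. When the library that lacks the App signal was left out, edgeR still called none of the 10, and Atp5k had a log2 fold change of 1.60 ± 0.35 (edgeR adjusted p = 0.0777). Atp5e then had 0.79 ± 0.15 (edgeR adjusted p = 0.0689), Atp5g3 0.66 ± 0.17 (edgeR adjusted p = 0.104) and Atp5d 0.56 ± 0.16 (edgeR adjusted p = 0.122). The groups, now 2 libraries against 3, were apart in the same 5 genes and in Atp5g1, all higher, beside 18.1% of all tested genes.

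5xFAD against WT shares the WT libraries with the contrast that chose Atp5k. Of the 10 genes, 9 lay below 0 (with the correction Atp5g2 lay above it, at 0.23) and 6 had groups that did not overlap, all lower, beside 9.05% of all tested genes apart in that direction. edgeR called 0 of the 10 and 0% of all tested genes (2139 at an unadjusted p under 0.05; DESeq2 called 150 of all genes and 2 of the 10). The log2 fold change was -1.55 ± 0.31 for Atp5k, -0.62 ± 0.13 for Atp5e, -0.53 ± 0.15 for Atp5g3 and -0.42 ± 0.15 for Atp5d, with edgeR adjusted p-values of 0.127, 0.173, 0.248 and 0.289, and these 4 were the ones with an unadjusted p under 0.05. Without 5xFAD replicate 1, Atp5k alone of the 10 was called, at -2.20 ± 0.20 (edgeR adjusted p = 0.000617).

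5xFAD;Ulk1OV against Ulk1OV shares the Ulk1OV libraries with the contrast that chose Atp5k, whose own value is a description: it was 5.99-fold higher in 5xFAD;Ulk1OV (log2 2.58 ± 0.33). Of the other 9 genes, 3 rose and none fell, beside 6.1% of all tested genes called in either direction and 3.67% called higher. Atp5g3 rose 2.09-fold (log2 1.06 ± 0.15, edgeR adjusted p = 0.0140), Atp5e 1.88-fold (log2 0.91 ± 0.13, edgeR adjusted p = 0.0140) and Atp5d 1.51-fold (log2 0.59 ± 0.15, edgeR adjusted p = 0.0337). Each was higher in 3 of 3 libraries. Atp5h had a log2 fold change of -0.36 ± 0.12 (edgeR adjusted p = 0.0799), with its groups apart. These calls ended when Ulk1OV replicate 3 was left out, and likewise without replicate 1 or replicate 2 of 5xFAD;Ulk1OV. edgeR then called 0 genes of all those tested, with nearly the same fold changes (log2 0.95, 1.03 and 1.07 for Atp5g3). They held without the library labelled 5xFAD;Ulk1OV replicate 3, where edgeR called the same 3. Atp5d was also lost without WT replicate 1 (edgeR adjusted p = 0.0511) and without Ulk1OV replicate 1 (edgeR adjusted p = 0.0910).

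**Figure D3:**
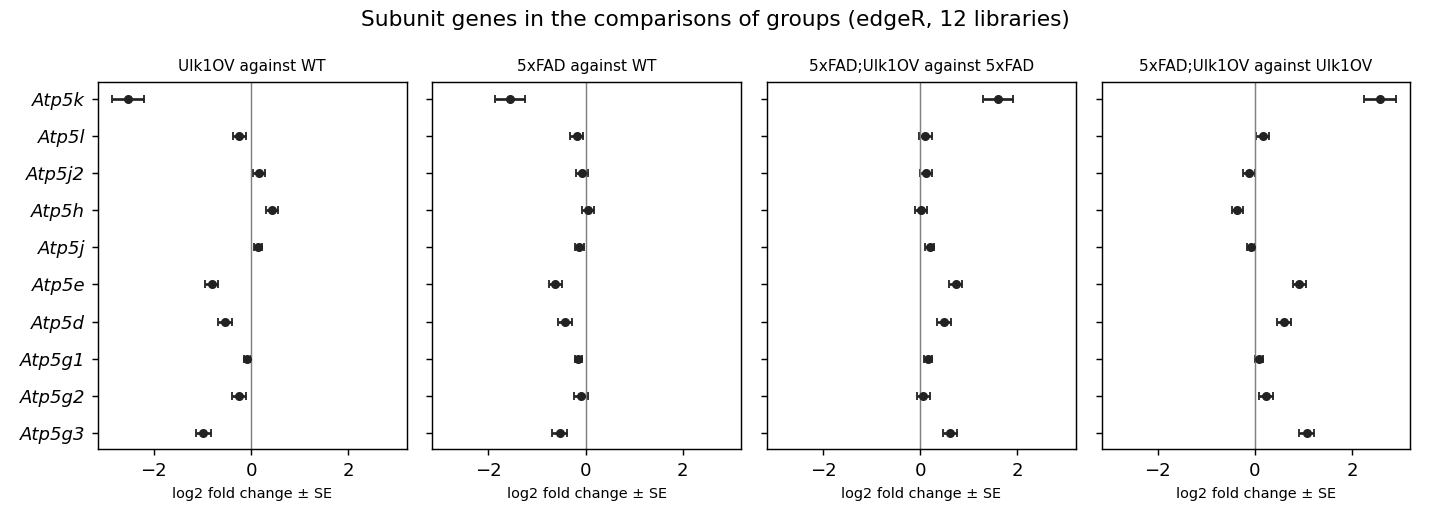
Log2 fold change ± SE of the 10 subunit genes (rows) in the 4 comparisons of groups (panels), from 1 edgeR fit to 12 libraries. Atp5k lies farthest from 0 in every panel, with Atp5e, Atp5d and Atp5g3 on the same side, and the other 6 genes lie within 0.43 of 0.

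The libraries also differed in a trend over the base composition of transcripts, and this trend moved with the subunit genes. For each library the median deviation of GC-rich genes (at least 55% GC) minus that of GC-poor genes (under 40%) was 0.20, 0.18 and 0.10 on the log2 scale in WT and 0.28, 0.32 and 0.12 in 5xFAD;Ulk1OV. It was 0.04, -0.36 and -0.18 in 5xFAD and -0.23, -0.08 and -0.43 in Ulk1OV. Every library with a low Atp5k also had the lower value, and 5xFAD replicate 1 stood between in both. Among all tested genes, the 3760 GC-rich ones had a median of -0.21 in Ulk1OV against WT and 0.17 in 5xFAD;Ulk1OV against 5xFAD, and the 1130 GC-poor ones 0.20 and -0.24. The transcript of Atp5k holds 55.8% GC, that of Atp5d 59.3% and that of Atp5g2 63.3%, while Atp5e (49.7%), Atp5g3 (49.3%) and Atp5h (46.9%) lie in the middle. Across the 17 nuclear subunit genes with a value, GC content and the contrast of the 2 Ulk1OV comparisons had a Pearson r of 0.26 (Spearman rho 0.15); these genes share the same libraries and are not independent.

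**Figure D4:**
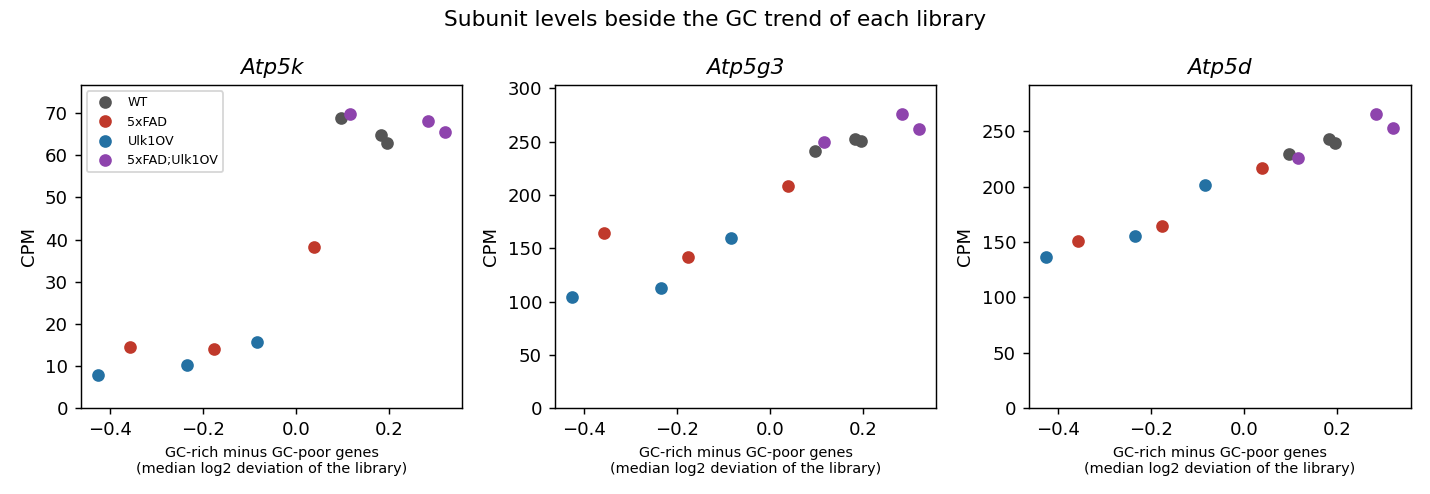
Level of Atp5k, Atp5g3 and Atp5d in CPM (vertical axes, from 0) against the GC trend of the library (horizontal axis: median log2 deviation of genes with at least 55% GC minus that of genes under 40% GC), 1 point per library. Atp5d climbs along the trend over the whole range, while Atp5k falls into a high and a low set with 5xFAD replicate 1 at 38.3 CPM between them.

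Short transcripts behaved in part alike. Length and GC content here are those of the longest annotated transcript of a gene. By that measure Atp5k, Atp5h, Atp5j, Atp5g2 and Atp5g3 are under 1 kb and the rest of the 10 genes are longer. Atp5e counts as 1697 bases, though its coding transcript has 421, and Atp5l as 6310, though its coding transcript has 544. The 1438 tested genes under 1 kb had a median log2 fold change of 0.19 in 5xFAD;Ulk1OV against 5xFAD and of -0.05 in Ulk1OV against WT, beside -0.09 and 0.04 for the 5929 over 4 kb. Correcting every library for GC content and transcript length together left most of the difference in Atp5k, Atp5e and Atp5g3 and less of it in Atp5d. In Ulk1OV against WT the corrected log2 fold changes were -2.35, -0.83, -0.99 and -0.27 for these genes in that order, which is 92.8%, 102%, 100% and 51.8% of the uncorrected ones. In 5xFAD;Ulk1OV against 5xFAD they were 1.27 ± 0.29, 0.62 ± 0.13, 0.43 ± 0.15 and 0.19 ± 0.11, with an edgeR adjusted p of 0.155 for Atp5k. In 5xFAD;Ulk1OV against Ulk1OV, Atp5e (0.90 ± 0.13) and Atp5g3 (1.01 ± 0.15) were still called after correction, at an edgeR adjusted p of 0.0121 each, and Atp5d (0.28 ± 0.11, edgeR adjusted p = 0.192) was not. Atp5g2 changed sign under the correction in that comparison, from 0.22 to -0.22, and was called in neither. Corrected Atp5l lay farther from 0 than corrected Atp5d, on the same side, in each comparison of groups. It was -0.39 ± 0.15 in Ulk1OV against WT and 0.33 ± 0.15 in 5xFAD;Ulk1OV against 5xFAD. Its values were -0.34 ± 0.15 in 5xFAD against WT and 0.38 ± 0.15 in 5xFAD;Ulk1OV against Ulk1OV. edgeR did not call Atp5l after correction in any of them (adjusted p from 0.144 to 0.482).

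**Figure D5:**
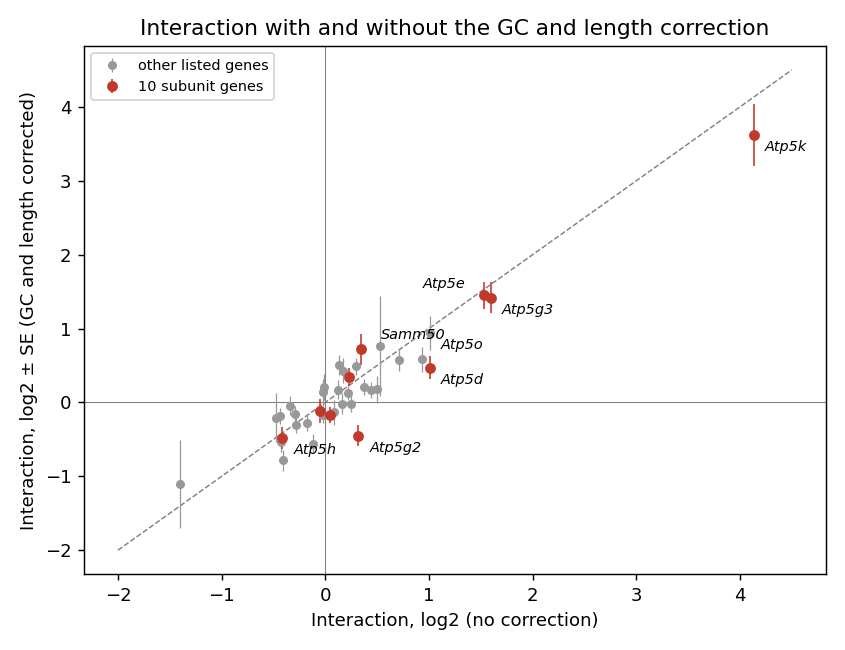
Contrast of the 2 Ulk1OV comparisons (the interaction: the log2 fold change on the 5xFAD background minus that without it) before correction for GC content and length (horizontal axis) and after it (vertical axis, ± SE), for the 10 subunit genes and the other listed genes, with the dashed line marking equal values. edgeR called 12.8% of all tested genes in this contrast, 6.8% above 0; among the 10, Atp5k goes from 4.14 to 3.62, Atp5e and Atp5g3 stay near the line, Atp5d drops from 1.01 to 0.47 and Atp5g2 changes sign.

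Some other measures leaned along the same split of groups, with overlaps. The share of counts from mitochondrially encoded genes was 5.05% to 5.42% in WT, 4.03% to 5.97% in 5xFAD;Ulk1OV, 5.52% to 6.98% in 5xFAD and 6.40% to 8.76% in Ulk1OV. The 4 fibroblast markers, all detected, summed to 174 to 244 CPM in WT, 123 to 249 in 5xFAD;Ulk1OV, 87.7 to 175 in 5xFAD and 97.8 to 137 in Ulk1OV. The 3 endothelial markers summed to 22.0 to 36.3 CPM in WT, 25.0 to 38.7 in 5xFAD;Ulk1OV, 19.9 to 22.9 in 5xFAD and 22.2 to 28.3 in Ulk1OV. The 4 blood markers summed to 88.7 to 194 CPM in WT, 92.6 to 149 in 5xFAD;Ulk1OV, 50.5 to 125 in 5xFAD and 52.8 to 132 in Ulk1OV. The mitochondrial share and each of these 3 marker sums overlapped in part between the groups high and the groups low in Atp5k. The 4 choroid plexus markers varied most within groups, from 47.5 to 6206 CPM in WT, 46.6 to 327 in 5xFAD;Ulk1OV, 23.5 to 151 in 5xFAD and 37.6 to 4176 in Ulk1OV. The part of these measures in the subunit differences was not tested.

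Of the remaining subunits of the enzyme, all 9 were tested. The genes of the catalytic core differed by small amounts between groups. Atp5b, the beta subunit, averaged 1309 ± 29.0 CPM in WT and 1377 ± 97.3 in Ulk1OV, and Atp5a1, the alpha subunit, 1016 ± 18.4 and 927 ± 60.7. Neither was called by edgeR in the 4 comparisons of groups, and DESeq2 called Atp5a1 in the contrast of the 2 Ulk1OV comparisons. Every Ulk1OV library of Atp5a1 lay below every library of WT and of 5xFAD;Ulk1OV. Its log2 fold change was -0.13 ± 0.08 in Ulk1OV against WT and 0.17 ± 0.08 in 5xFAD;Ulk1OV against Ulk1OV. edgeR called 0 of the 9 in Ulk1OV against WT (2 at an unadjusted p under 0.05, 2 by DESeq2), in 5xFAD;Ulk1OV against 5xFAD (1 and 1) and in 5xFAD against WT (1 and 0). It called 1 in 5xFAD;Ulk1OV against Ulk1OV (2 by DESeq2, Atp5o being the other), mt-Atp6, the mitochondrially encoded proton channel subunit, which fell (log2 -1.72 ± 0.44, edgeR adjusted p = 0.0388). Its Ulk1OV libraries were widely spread, at 175, 65.6 and 289 CPM beside 91.2, 51.8 and 46.9 in WT, and overlapped both groups. edgeR did not call it after the correction for GC content and length (adjusted p = 0.0772), nor without WT replicate 2, Ulk1OV replicate 1 or 3 or 5xFAD;Ulk1OV replicate 1 or 2, left out 1 at a time (highest adjusted p = 0.196). Atp5o, the subunit that ties the peripheral stalk to the head, was at 97.6, 92.8 and 80.4 CPM in WT, 88.6, 91.5 and 90.2 in 5xFAD;Ulk1OV, 76.1, 59.0 and 50.6 in 5xFAD and 50.04, 70.3 and 75.1 in Ulk1OV. It was thus low in the same groups as Atp5k, with groups apart in each comparison, and its log2 fold change was 0.54 ± 0.15 in 5xFAD;Ulk1OV against 5xFAD (edgeR adjusted p = 0.114; 0.56 ± 0.18 and 0.151 without the library that lacks the App signal). The list's median was 0.07 in Ulk1OV against WT and 0.08 in 5xFAD;Ulk1OV against 5xFAD.

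Of 8 listed inhibitor and assembly genes, 7 were tested and edgeR called none in the 4 comparisons of groups (at most 2 at an unadjusted p under 0.05 and at most 1 by DESeq2 in each). The nearest was Fmc1, an assembly factor of the head, at 14.6 ± 0.839 CPM in 5xFAD and 23.9 ± 1.64 in 5xFAD;Ulk1OV (log2 0.71 ± 0.15, edgeR adjusted p = 0.0739), with the groups apart. Without the library that lacks the App signal Fmc1 had 0.77 ± 0.17 (edgeR adjusted p = 0.0777). Of the 4 carriers that bring ADP and phosphate to the enzyme, 3 were tested and edgeR called none in the 4 comparisons of groups (at most 2 at an unadjusted p under 0.05, and by DESeq2 1, Slc25a4, in 5xFAD;Ulk1OV against 5xFAD). In the contrast of the 2 Ulk1OV comparisons edgeR called none either, though all 3 passed unadjusted at 0.05 and 2, Slc25a3 and Slc25a4, were called by DESeq2. All 3 lay below 0 in Ulk1OV against WT and above 0 in 5xFAD;Ulk1OV against 5xFAD, by at most 0.25 on the log2 scale. Slc25a4, the adenine nucleotide carrier of excitable tissue, had 0.25 ± 0.08 (edgeR adjusted p = 0.165) and Slc25a5, its broadly expressed relative, 0.17 ± 0.07 (edgeR adjusted p = 0.230) in the latter comparison.

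Cristae are shaped by the dimer rows together with the MICOS complex and OPA1, and all 9 genes of that list were tested. Samm50, an outer membrane protein bound to MICOS, was at 81.0 ± 2.41 CPM in WT, 79.6 ± 1.55 in 5xFAD;Ulk1OV, 67.5 ± 10.2 in 5xFAD and 58.4 ± 3.67 in Ulk1OV (SD, n = 3 each). It fell in Ulk1OV against WT (log2 -0.47 ± 0.10, edgeR adjusted p = 0.0272) and rose in 5xFAD;Ulk1OV against Ulk1OV (log2 0.44 ± 0.10, edgeR adjusted p = 0.0235), the 1 gene of the list that edgeR called in each. DESeq2 called 4 of the 9 in each, 2 up and 2 down: Samm50, 2410015M20Rik, Minos1 and Chchd3 in the first and Samm50, 2410015M20Rik, Minos1 and Opa1 in the second. The list's medians went the other way, 0.20 and -0.18, so Samm50 did not stand for its list. With each of the 12 libraries left out in turn, the first call ended in 5 fits, those without WT replicate 1, 2 or 3 or Ulk1OV replicate 1 or 3 (highest edgeR adjusted p = 0.135), and the second in 4, those without Ulk1OV replicate 1 or 3 or 5xFAD;Ulk1OV replicate 1 or 2 (highest edgeR adjusted p = 0.103). With the correction neither call of Samm50 held (log2 -0.38 and 0.38, edgeR adjusted p = 0.0536 and 0.0629), while Minos1, a core MICOS subunit, was called in Ulk1OV against WT (log2 0.41 ± 0.10, edgeR adjusted p = 0.0417). 2410015M20Rik, a small MICOS subunit, was at 46.2 to 54.7 CPM in WT, 49.8 to 53.0 in 5xFAD;Ulk1OV, 34.3 to 38.5 in 5xFAD and 30.9 to 48.7 in Ulk1OV. Opa1, the inner membrane fusion protein, ran opposite, at 161 to 174 CPM in WT, 151 to 169 in 5xFAD;Ulk1OV, 182 to 201 in 5xFAD and 188 to 203 in Ulk1OV. edgeR called neither in the 4 comparisons of groups. DESeq2 called 2410015M20Rik in all 4 and Opa1 in 5xFAD;Ulk1OV against Ulk1OV.

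Likeness to Atp5k was measured as the Pearson correlation of log2 CPM over the 12 libraries, for 15212 genes with a mean of at least 1 CPM. Atp5k falls into a high and a low set of libraries, so a high value says mainly that a gene was high and low in the same libraries, and these values are a description with no test. The 6 most alike were H3f3a, a histone H3.3 gene (0.985), the pseudogene Rpl7a-ps5 (0.982), Atp5g3 (0.978), Dedd2 (0.977), Zfp444 (0.974) and Esrra, which encodes the estrogen-related receptor alpha (0.970). The 2 most opposite were Kif2a and Nol11 (both -0.974). H3f3a ran from 88.0 to 91.2 CPM in WT and 54.7 to 68.4 in Ulk1OV, and Esrra from 52.2 to 57.5 and 26.1 to 37.0, both smaller differences than that of Atp5k. Of the 9 other subunit genes, Atp5g3 ranked 3rd, Atp5e 15th (0.962) and Atp5d 65th (0.944). The next of these 9 was Atp5g2, at rank 1888 (0.665), and Atp5h stood near the far end, at rank 13807 (-0.707). Among the remaining subunits, Atp5a1 was at rank 391 (0.867), Atp5o at 748 (0.811) and Atp5b at 8920 (-0.179).

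The shares of genes called around Atp5k on chromosome 5 were near those over all tested genes. Ulk1 lies on the same chromosome, at 110784488 to 110810097. Of 75 tested genes within 3 Mb, 2 rose and 1 fell by edgeR in Ulk1OV against WT, beside 5.17% of all tested genes, and 2 rose and 3 fell in 5xFAD;Ulk1OV against Ulk1OV, beside 6.1%. DESeq2 called 6 and 8 of the 75 in these comparisons, beside 1883 and 2027 of all genes. edgeR called none in 5xFAD;Ulk1OV against 5xFAD (13 at an unadjusted p under 0.05, beside 3003 of all 17227 genes, and 3 by DESeq2, beside 734) or in 5xFAD against WT (2 and 0, beside 2139 and 150). The nearest tested genes, Gm10419 on one side and Mfsd7a on the other, had log2 fold changes of 0.09 ± 0.09 and -0.36 ± 0.48 in Ulk1OV against WT. Gm42517, 65.3 kb away, fell in that comparison (log2 -0.55 ± 0.14, edgeR adjusted p = 0.0446), Lrrc8c, a subunit of volume-regulated anion channels, rose (log2 0.72 ± 0.18, edgeR adjusted p = 0.0406) and Pitpnb, a phosphatidylinositol transfer protein, rose (log2 0.33 ± 0.09, edgeR adjusted p = 0.0465). Gm42517 rose in 5xFAD;Ulk1OV against Ulk1OV (log2 0.61 ± 0.14, edgeR adjusted p = 0.0292) and Lrrc8c fell there (log2 -0.70 ± 0.18, edgeR adjusted p = 0.0404). Crlf2 also rose there (log2 0.68 ± 0.17, edgeR adjusted p = 0.0330). Tmed5 (log2 -0.38 ± 0.10, edgeR adjusted p = 0.0415) and Glmn (log2 -0.60 ± 0.16, edgeR adjusted p = 0.0485) fell. These calls near Atp5k were easily lost. With each of the 12 libraries left out in turn, those in Ulk1OV against WT ended in 9 fits for Gm42517, 6 for Lrrc8c and 9 for Pitpnb, in each case including the fits without WT replicate 1, WT replicate 2, Ulk1OV replicate 1, Ulk1OV replicate 3 and 5xFAD;Ulk1OV replicate 1. Those in 5xFAD;Ulk1OV against Ulk1OV ended in 3 fits for Gm42517, 6 for Lrrc8c, 4 for Crlf2, 7 for Tmed5 and 10 for Glmn. Each case included the fits without Ulk1OV replicate 3 and 5xFAD;Ulk1OV replicates 1 and 2. Of the neighbours, edgeR called 2 higher and 3 lower in Ulk1OV against WT once the library labelled 5xFAD;Ulk1OV replicate 3 was left out. After each library was corrected as above, edgeR called none of Gm42517 (-0.04), Lrrc8c (0.65) and Pitpnb (0.27) in Ulk1OV against WT. It then called 2 other neighbours, named here after their values were seen: Ulk1 itself (log2 0.47 ± 0.08, edgeR adjusted p = 0.0161) and Fam69a (log2 -0.50 ± 0.13, edgeR adjusted p = 0.0489). In 5xFAD;Ulk1OV against 5xFAD the same correction lowered Ulk1 from 0.35 to 0.21 ± 0.08, which was not called (edgeR adjusted p = 0.350). Pseudogene rows named after the 10 genes (Atp5l2-ps, Atp5l-ps1, Atp5k-ps2 and Atp5l-ps2) held 0 to 12 counts in any library and none was tested.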

How the data were processed

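Hippocampal RNA of 12 mouse libraries was made into libraries with a NEBNext Ultra kit, per the labels' protocols. The deposited table gives read counts per gene, not normalized. The submitters' processing notes name HISAT2 and SAMtools for the build mm10, featureCounts, DESeq2, FastQC and Trim Galore, with no role or order. The sources used here give no settings, annotation or use of strand, which leaves counts of overlapping genes, pseudogenes and paralogs uncertain.

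On these counts edgeR 4.0.16 (R 4.3.3) retained 17227 genes with filterByExpr, scaled by TMM and fitted 1 mean per group to all 12 libraries, so the 4 groups share the spread. Its quasi-likelihood test was adjusted over all tested genes (Benjamini-Hochberg), and calls were made under an adjusted p of 0.05. SE is the log2 fold change over the square root of F. CPM are counts scaled to the library total; log2 CPM use a prior count of 1. GC content and length are those of each gene's longest transcript in GENCODE M21 on GRCm38, for 17111 tested genes (99.3%). The correction for them uses loess with span 0.4. The edgeR steps were also run on simulated counts, with known fold changes in 5xFAD;Ulk1OV and no GC trend, to check the code only. No result here rests on that run. Across the 10 genes and 12 libraries the lowest value is 145 counts (Atp5k). Where replicates lay close together, as for Atp5k in 5xFAD;Ulk1OV, counting error is about as large as their spread.

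The genes and lists were chosen with earlier results of these data known. Named were the 10 genes and up to 4 called genes per list (or up to 2 by smallest p). Also named were the neighbours that edgeR called in Ulk1OV against WT or in 5xFAD;Ulk1OV against Ulk1OV. Added to these were the nearest tested neighbours, the 6 most and 2 least like genes and pseudogene rows. Ulk1, App, Prnp and Lamr1-ps1 served as label checks. Also run were DESeq2 1.42.0, edgeR with the size factors of DESeq2, all genes with no filter, a replicate block, the correction for GC content and length, only the 6 libraries compared, and each library left out in turn. The GC classes and the values shown without the library labelled 5xFAD;Ulk1OV replicate 3 were added after seeing the data.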

Additional observations from a re-analysis of the deposited data

Results flagged for a closer look

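The effect of the Ulk1OV label was compared between the background without 5xFAD and the 5xFAD background by the interaction in the edgeR fit, which is the log2 fold change of 5xFAD;Ulk1OV against 5xFAD minus that of Ulk1OV against WT. edgeR called 12.8% of all tested genes in it, 6.8% above 0. It contains the contrast that chose Atp5k, so the values of the 10 subunit genes are a description. The interaction was 4.14 ± 0.45 (SE) for Atp5k, 1.60 ± 0.22 for Atp5g3, 1.54 ± 0.19 for Atp5e and 1.01 ± 0.21 for Atp5d. These 4 of the 10 are listed because they passed the threshold, and nothing is read from that. Leaving out the library that lacks the App signal gave 4.15 ± 0.48, 1.66 ± 0.23, 1.62 ± 0.20 and 1.1 ± 0.22 in the same order. Once GC content and length were corrected for, the values were 3.62 ± 0.42, 1.42 ± 0.21, 1.45 ± 0.18 and 0.47 ± 0.16.

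Among the listed genes outside the 10, Atp5o, the connector of the peripheral stalk, had an interaction of 1.01 ± 0.22 (edgeR adjusted p = 0.0125). Tmem242, an assembly factor, had 0.44 ± 0.13 (edgeR adjusted p = 0.0416). In the cristae list 2410015M20Rik had 0.93 ± 0.19 (edgeR adjusted p = 0.0110), Samm50 0.71 ± 0.14 (edgeR adjusted p = 0.00874) and Opa1 -0.44 ± 0.11 (edgeR adjusted p = 0.0204). After the correction Atp5o (0.94, edgeR adjusted p = 0.0330) and Samm50 (0.57, edgeR adjusted p = 0.0340) were still called, and Tmem242 (0.17), 2410015M20Rik (0.58) and Opa1 (-0.18) were not. The correction also added calls: Atp5f1 (0.51, edgeR adjusted p = 0.0466), Slc25a3 (0.49, edgeR adjusted p = 0.0285), Atp5mpl (-0.56, edgeR adjusted p = 0.0225), Atpif1 (-0.78, edgeR adjusted p = 0.0113) and Minos1 (-0.54, edgeR adjusted p = 0.0376). Without the library that lacks the App signal the 5 uncorrected calls held and Slc25a4 was called as well.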

How the results depend on the processing

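Atp5k kept its direction in all 5 contrasts under every alternative run. With 1 library left out its log2 value ranged from -2.86 to -2.33 in Ulk1OV against WT, 1.36 to 2.25 in 5xFAD;Ulk1OV against 5xFAD, -2.20 to -1.31 in 5xFAD against WT, 2.38 to 2.91 in 5xFAD;Ulk1OV against Ulk1OV and 3.89 to 4.80 in the interaction. In 5xFAD;Ulk1OV against 5xFAD it passed the threshold with DESeq2 (1.61) and with no filter on low counts (1.61), and in 5xFAD against WT likewise (-1.56 and -1.55); the cause was not tested. The correction for GC content and length moved its interaction to 3.62. In the order Ulk1OV against WT, 5xFAD;Ulk1OV against 5xFAD, 5xFAD against WT, DESeq2 called 5, 4 and 2 of the 10 genes, and edgeR with no filter on low counts called 5, 4 and 4. Leaving out 1 library gave 0 to 5, 0 to 4 and 0 to 1 of the 10 in these contrasts, 0 to 5 in 5xFAD;Ulk1OV against Ulk1OV and 4 to 5 in the interaction. In Ulk1OV against WT, 0 were called without WT replicate 1, WT replicate 2 or Ulk1OV replicate 3, and 5 without 5xFAD replicate 1 or Ulk1OV replicate 2. Over all genes, calls numbered 891 in Ulk1OV against WT (1883 with DESeq2, 2079 with no filter, 525 with the GC and length correction, 468 with that correction and the replicate block, 0 to 1294 with 1 library left out). They numbered 8 in 5xFAD;Ulk1OV against 5xFAD (734 with DESeq2, 18 with DESeq2's size factors, 901 with no filter, 0 with the replicate block, 0 with the correction, 0 with both, 0 with 6 libraries, 0 to 260 with 1 left out) and 0 in 5xFAD against WT (150 with DESeq2, 551 with no filter, 1 with correction and block, 2 with 6 libraries, 0 to 39 with 1 left out). In 5xFAD;Ulk1OV against Ulk1OV there were 1051 (2027 with DESeq2, 2097 with no filter, 371 with the correction, 319 with correction and block, 430 with 6 libraries, 0 to 1629 with 1 left out), and in the interaction 2197 (893 with the correction, 803 with correction and block, 974 to 2596 with 1 left out). Of the genes called in Ulk1OV against WT, 41.3% were higher, and 55.6% with the correction. Genes with small differences changed sign: in 5xFAD;Ulk1OV against 5xFAD, Atp5h (-0.10 with the correction, -0.10 with correction and block, -0.076 to 0.090 with 1 library left out, the lowest without 5xFAD replicate 1) and Atp5g2 (-0.35 and -0.35 with the correction, without and with the block). In 5xFAD against WT, Atp5h ranged from -0.022 (without 5xFAD replicate 3) to 0.15 with 1 library left out, and Atp5g2 0.23 with the correction, with or without the block. In 5xFAD;Ulk1OV against Ulk1OV, Atp5g2 reached -0.22 with the correction, with or without the block.

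Libraries of different groups share replicate numbers, but deviations of same-numbered libraries correlated at -0.18 to 0.21 (18 pairs) and 0 of 12 libraries correlated best with their own number, so the numbers were not taken as pairs. With the replicate block, Atp5k had 1.67 in 5xFAD;Ulk1OV against 5xFAD (edgeR adjusted p = 0.0636), and 4 of the 10 genes were called in Ulk1OV against WT, 0 in 5xFAD;Ulk1OV against 5xFAD, 0 in 5xFAD against WT and 4 in 5xFAD;Ulk1OV against Ulk1OV. The fits for single genes outside the 10 and for the list and neighbour counts, by DESeq2, with the correction and leaving out each library, were chosen after seeing the data.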
